A study of Mus musculus with 2 samples.

Results

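Dendritic cells with Flt3 transcripts were picked out of the myeloid cells of mouse distal colon adenomas and described across genes and between the authors' 2 cell classes, CIN_high and CIN_low. A cell was a member if the authors had annotated it as Myeloid and it held at least 1 unique molecular identifier (UMI, a tag counted once per captured transcript) of Flt3, none of Csf3r, the receptor by which neutrophils sense G-CSF, and UMIs of fewer than 2 of C1qa, C1qb and C1qc, complement genes of macrophages. This gave 315 cells among 8278 myeloid cells and 14097 cells in all, 138 of them CIN_high and 177 CIN_low. The cells were chosen by their measured values of Flt3, Csf3r and the C1q genes, which are described here and not read as findings.

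The adenomas came from mice of the strain Apcmin;LSL-mTERT, 25 weeks old, and the labels name the groups G4+T and G0+T with 1 droplet library each. Apcmin is a truncating allele of Apc, which restrains Wnt signalling, and both groups carried it together with an LSL-mTERT allele, a mouse Tert gene behind a removable stop. The labels used here give neither the Cre that would remove the stop nor the number of mice per library. All CIN_high cells carried barcode suffix 1 and all CIN_low cells suffix 2, so the class divides 2 libraries. The suffixes match the numbers in the sample titles, with suffix 1 that of G0+T, but every cell name begins with G0. For that reason no cell is assigned to G4+T or G0+T, and every comparison is between 2 libraries, with no replicate check, no SD and no test. No member's barcode occurred in both libraries.

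Conventional dendritic cells develop under the growth factor FLT3L, whose receptor is encoded by Flt3, and present antigen to T cells on MHC class II. One lineage, cDC1, carries XCR1 and CLEC9A, depends on IRF8 and BATF3 and presents antigen taken up from dying cells to CD8 T cells; the other, cDC2, carries SIRPA and, in part, CD209A. Either kind can mature, when it switches on CCR7, the receptor that guides it along lymph vessels to the draining node, and FSCN1, which bundles actin.

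By the GENCODE annotation of mm10, the build of the deposited data, Flt3 lies at chr5:147330741-147400489, Xcr1 at chr9:123852315-123862029, Ccr7 at chr11:99144196-99155077 and Cd209a at chr8:3743397-3748984, all protein-coding genes on the minus strand. Of the 8278 myeloid cells, 370 held a Flt3 UMI, 150 in the CIN_high and 220 in the CIN_low library. Csf3r removed 33 of these, 10 CIN_high and 23 CIN_low, and C1q genes removed 22 more, 2 CIN_high and 20 CIN_low. Flt3 rested on 1 UMI in 150 members, on 2 in 75 and on 3 or more in 90. A single Flt3 UMI thus decided the place of nearly as many cells as did larger counts. Members held a median of 8875.5 UMIs and 2466 genes in the CIN_high library and 8721 UMIs and 2482 genes in the CIN_low library. The range was 994 to 28915 UMIs, and other myeloid cells had medians of 5587 (CIN_high) and 6036 (CIN_low). Free RNA in the droplets can add stray UMIs: Flt3 was seen in 0 of 234 CIN_high T and NK cells, which allows a share of up to 1.28%, and in 1.45% of 414 CIN_low ones.

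Members just inside and just outside the rule were set side by side. Levels are means over cells of UMIs per 10000 UMIs of the cell, and no level is compared between genes. Members with 1 Flt3 UMI had H2-Aa, an MHC class II chain, at 51.8 (CIN_high) and 60.1 (CIN_low), against 20.5 and 19 in the 2203 myeloid cells that met the other criteria with Flt3 at 0. Their Lyz2, the lysozyme of monocytes, macrophages and neutrophils, was at 17.7 (CIN_high) and 17.2 (CIN_low), against 57.0 and 46.0 in those outside. In members with 2 or more Flt3 UMIs Lyz2 was at 2.91 (CIN_high) and 4.54 (CIN_low). Members with 1 Flt3 UMI thus lay between the other members and the cells left out for this gene. Outside the rule, 20 cells with Flt3 at 0 held Xcr1 (14 CIN_high, 6 CIN_low) and 122 held Ccr7 (44 CIN_high, 78 CIN_low), so cells with these markers also lay outside the rule.

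The label was checked against its marker genes. Xcr1 was present in 35.5% of CIN_high members and 20.3% of CIN_low members, and Ccr7 in 38.4% and 54.8%. Cd209a was found in 0 of 138 CIN_high members, which allows a share of up to 2.17%, and in 1 of 177 CIN_low members (0.565%). Only 16 of all 8278 myeloid cells held Cd209a, so the marker expected of cDC2 was nearly absent from these libraries and no Cd209a group could be described. For Xcr1, the share in cells that should lack it was 0% of CIN_high and 0.483% of CIN_low T and NK cells, which had median depths of 3442 and 3666 UMIs. For Ccr7, which some T cells carry, epithelial cells gave 0.608% (CIN_high) and 1.51% (CIN_low) at median depths of 14032.5 and 15364 UMIs.

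Genes outside the rule also set the members apart from the other 7963 myeloid cells. With both libraries required to pass 1.5-fold, 832 of 3146 genes (26.4%) were higher in members and 619 (19.7%) lower. Of the cDC1 genes measured, 10 of 12 were higher and none lower, with median log2 ratios of 3.19 (CIN_high) and 3.14 (CIN_low), beside 0.17 and 0.36 over all genes. Of 24 mature dendritic cell genes, 20 were higher. Of 11 genes common to dendritic cells, 7 were higher, among them Flt3, which the rule itself fixed. Neither list had a gene that was lower in both libraries. The other dendritic cell lists did not share this: of 9 cDC2 genes 3 were higher and 5 lower, with median log2 ratios of -1.05 (CIN_high) and -0.64 (CIN_low), and of 3 plasmacytoid dendritic cell genes none was higher and 1 was lower. In the opposite direction, 13 of 13 macrophage genes, 11 of 11 neutrophil genes and 9 of 11 monocyte genes were lower. The member cells were chosen in part against neutrophil and macrophage genes, so these last counts describe the choice.

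Among the 15 genes with the largest ratio of members over other myeloid cells stood Itgae, the CD103 integrin chain of intestinal cDC1, at 2.81 in members and 0.0580 in other myeloid cells of the CIN_high library and at 1.81 and 0.0309 in the CIN_low library. Btla, an inhibitory receptor of cDC1 and lymphocytes, was at 1.31 in members and 0.0386 in other myeloid cells (CIN_high), and at 1.00 and 0.0207 (CIN_low). Dpp4, the surface peptidase CD26, was at 1.76 in members and 0.0756 in other myeloid cells (CIN_high), and at 1.79 and 0.0419 (CIN_low). Zbtb46, a transcription factor that marks conventional dendritic cells, was not among the 15. It was at 0.709 in members and 0.0267 in other myeloid cells (CIN_high), and at 0.480 and 0.0181 (CIN_low). All these genes were far higher in members in both libraries. The others of the 15 were Flt3, Xcr1, Clec9a, Fscn1, Serpinb6b, Serpinb9, Scin, Bcl2l14, Plet1, Zfp366, Strip2 and Gnb4.

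Members made up 138 of 2930 CIN_high myeloid cells (4.71%, 95% Clopper-Pearson interval 3.97% to 5.54%) and 177 of 5348 CIN_low myeloid cells (3.31%, 2.85% to 3.82%). These intervals, like all intervals below, cover counting error only. Of all cells of a library, members were 2.23% (CIN_high) and 2.24% (CIN_low), which differ by less than counting error. With myeloid cells that held Csf3r left out of the denominator, the shares were 7.15% (6.04% to 8.39%) in CIN_high and 5.71% (4.92% to 6.59%) in CIN_low cells, and the intervals overlap. Whether the libraries differed in members thus depended on what they were set against.

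Members were divided by which marker had a UMI. The Xcr1 group held 42 of 138 CIN_high members (30.4%, 22.9% to 38.8%) and 30 of 177 CIN_low members (16.9%, 11.7% to 23.3%). The Ccr7 group held 46 CIN_high members (33.3%, 25.5% to 41.9%) and 91 CIN_low members (51.4%, 43.8% to 59.0%). The balance of the groups thus differed between the libraries: the intervals of the Ccr7 group do not overlap, and those of the Xcr1 group barely do. Cells with neither marker made up 31.2% (CIN_high) and 27.7% (CIN_low), and cells with both made up 5.07% and 3.39%, 7 and 6 cells.

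Each cell was also thinned to 3000 UMIs, which left out 15 CIN_high and 5 CIN_low cells with fewer, and the order held. The share with an Xcr1 UMI was then 29.3% in CIN_high and 12.2% in CIN_low members, and the share with a Ccr7 UMI 35.8% and 52.3%. Set against all myeloid cells, the Xcr1 group was 1.43% (1.04% to 1.93%) of CIN_high and 0.561% (0.379% to 0.80%) of CIN_low cells, and the Ccr7 group 1.57% (1.15% to 2.09%) and 1.70% (1.37% to 2.09%). On that denominator the Xcr1 group differed and the intervals of the Ccr7 group overlapped.

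**Figure D1:**
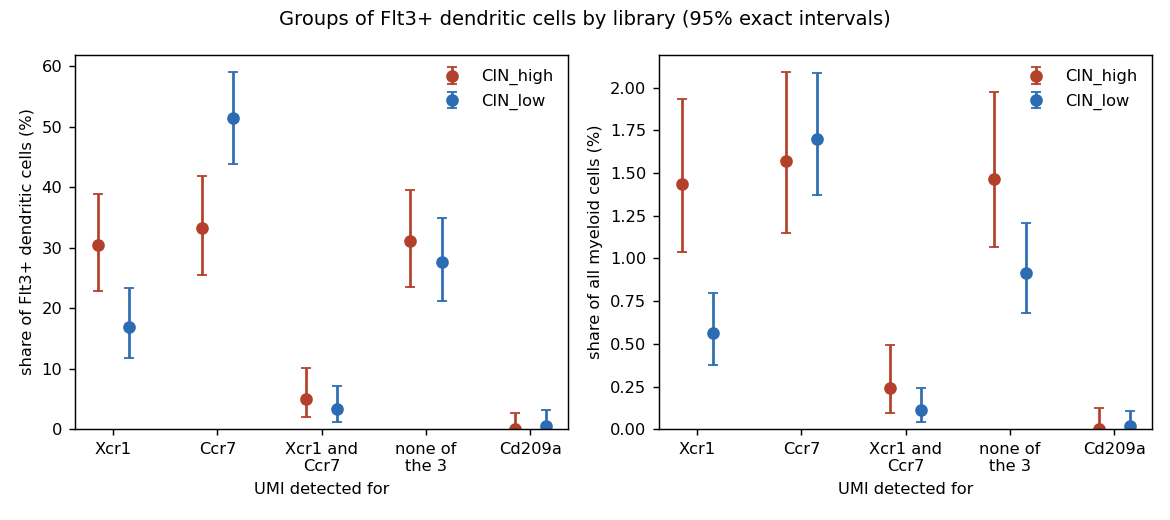
Shares of the marker groups among Flt3-positive dendritic cells (left) and among all myeloid cells (right), in percent, as points with 95% exact intervals, CIN_high left of CIN_low in each pair. The Xcr1 group was 30.4% of CIN_high and 16.9% of CIN_low members, the Ccr7 group 33.3% and 51.4%.

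The Xcr1 and Ccr7 groups had nearly separate gene programmes. Since 1 cell held Cd209a alone, the contrast of 1 group with the others is in effect Xcr1 against Ccr7, and the Ccr7 contrast mirrors it. Of 2959 genes tested, 601 (20.3%) were higher at 1.5-fold in both libraries in the Xcr1 group and 633 (21.4%) lower. Each cell was scored by the summed level of the 18 cDC1 genes and of the 28 mature dendritic cell genes; both lists contain the marker that defines a group. The median cDC1 sum was 67.8 (CIN_high) and 65.2 (CIN_low) in the Xcr1 group, and 10.3 and 8.90 in the Ccr7 group. The median mature sum was 182 (CIN_high) and 182 (CIN_low) in the Ccr7 group, and 7.01 and 9.69 in the Xcr1 group. No cell of the Xcr1 group had a mature sum above its cDC1 sum, while 44 of 46 CIN_high and 91 of 91 CIN_low cells of the Ccr7 group did.

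**Figure D2:**
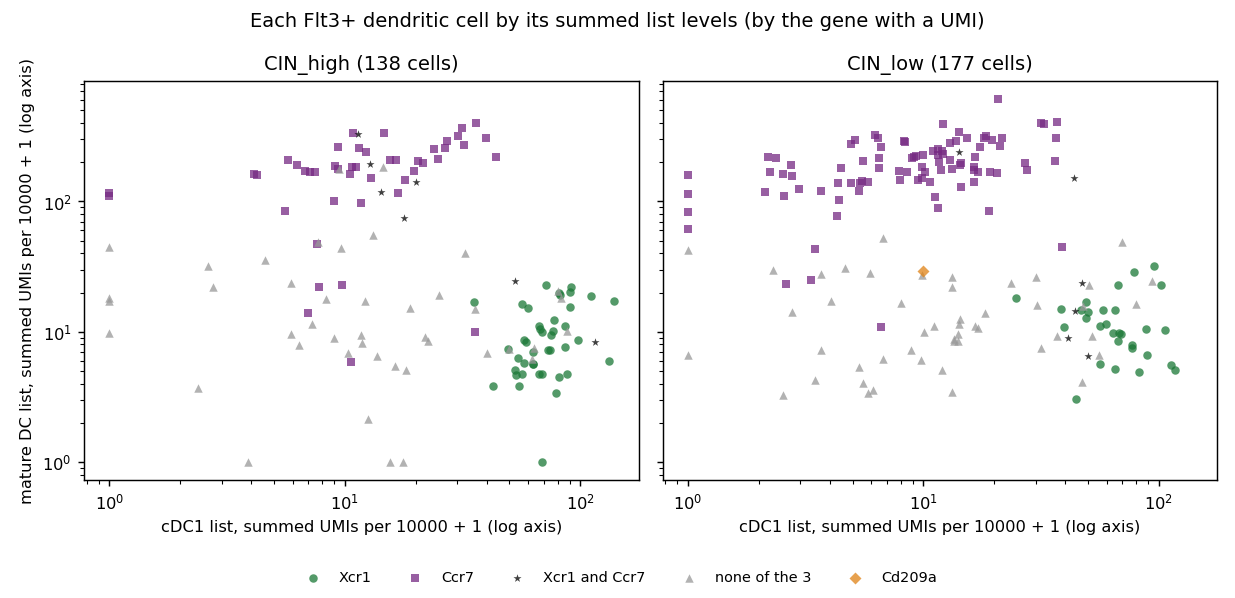
Each point is 1 Flt3-positive dendritic cell, with its summed cDC1 gene level plus 1 on the x axis and its summed mature dendritic cell gene level plus 1 on the y axis, in UMIs per 10000 on log axes, CIN_high in the left panel and CIN_low in the right. The Xcr1 group (median cDC1 sums 67.8 and 65.2) and the Ccr7 group (median mature sums 182 and 182) lie in different corners, and cells with neither marker spread between and below them.

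In the Xcr1 group, 13 of 15 cDC1 genes tested were higher than in the other groups and none lower. The median log2 ratios were 4.84 (CIN_high) and 5.42 (CIN_low), beside 0.0022 and 0.085 over all genes tested. Genes with 0 UMIs on 1 side entered at a floor of 3 UMIs. Clec9a, the receptor that recognises actin of dead cells, was at 4.16 (CIN_high) and 3.11 (CIN_low) in the Xcr1 group, against 0.145 and 0.0706 in the Ccr7 group. Tlr3, the sensor of double-stranded RNA, was at 2.18 (CIN_high) and 2.58 (CIN_low), against 0.0644 and 0. Wdfy4, needed by cDC1 for cross-presentation, was at 8.82 (CIN_high) and 8.78 (CIN_low), against 0.381 and 0.185. Each of these genes was higher in the Xcr1 group of both libraries by 10-fold or more where a ratio can be formed. Rab7b, Ppt1, Naaa, Itgae, Cadm1, St3gal5, Sdad1, Agpat3, Mpeg1, Egr3 and Ccl4 completed the 15 genes with Xcr1 itself.

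Of 18 dendritic cell transcription factors tested, 2 were higher and 7 lower in the Xcr1 group, beside 20.3% and 21.4% of all genes. Irf8 was at 10.1 (CIN_high) and 10.4 (CIN_low) in the Xcr1 group and at 9.97 and 7.48 in the Ccr7 group, and Batf3 at 1.53 and 1.81 in the Xcr1 group and at 1.65 and 1.31 in the Ccr7 group. Both cDC1 factors were therefore at similar levels on either side of a contrast that changed their lineage's surface genes by more than 10-fold. In cells with neither marker Irf8 was at 2.85 (CIN_high) and 3.12 (CIN_low), and in other myeloid cells at 1.53 and 1.17. Zbtb46 was at 0.416 (CIN_high) and 0.451 (CIN_low) in the Xcr1 group and at 1.27 and 0.687 in the Ccr7 group.

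MHC class II genes were higher in the Xcr1 group in 8 of 13 cases and lower in 2, beside 20.3% and 21.4% of all genes. H2-Ab1 was at 93.4 (CIN_high) and 90.9 (CIN_low) in the Xcr1 group, against 21.6 and 32.2 in the Ccr7 group. Cd74, the invariant chain that guides class II through the cell, was at 159 (CIN_high) and 171 (CIN_low), against 67.8 and 85.8. H2-DMb1, part of the peptide exchanger, was at 5.73 (CIN_high) and 7.11 (CIN_low), against 0.557 and 1.10. The whole class II list summed to 446 (CIN_high) and 459 (CIN_low) in the Xcr1 group and to 180 and 240 in the Ccr7 group. Thus the Ccr7 group had lower transcript levels for most of this machinery in both libraries; Ifi30, a lysosomal thiol reductase, was the other way, at 16.2 (CIN_high) and 17.2 (CIN_low) against 10.6 and 10.0 in the Xcr1 group. Immediate early and heat shock genes, a sign of handling during dissociation, were also higher in the Xcr1 group, 7 of 12 with 1 lower, and their part in these differences was not tested.

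**Figure D3:**
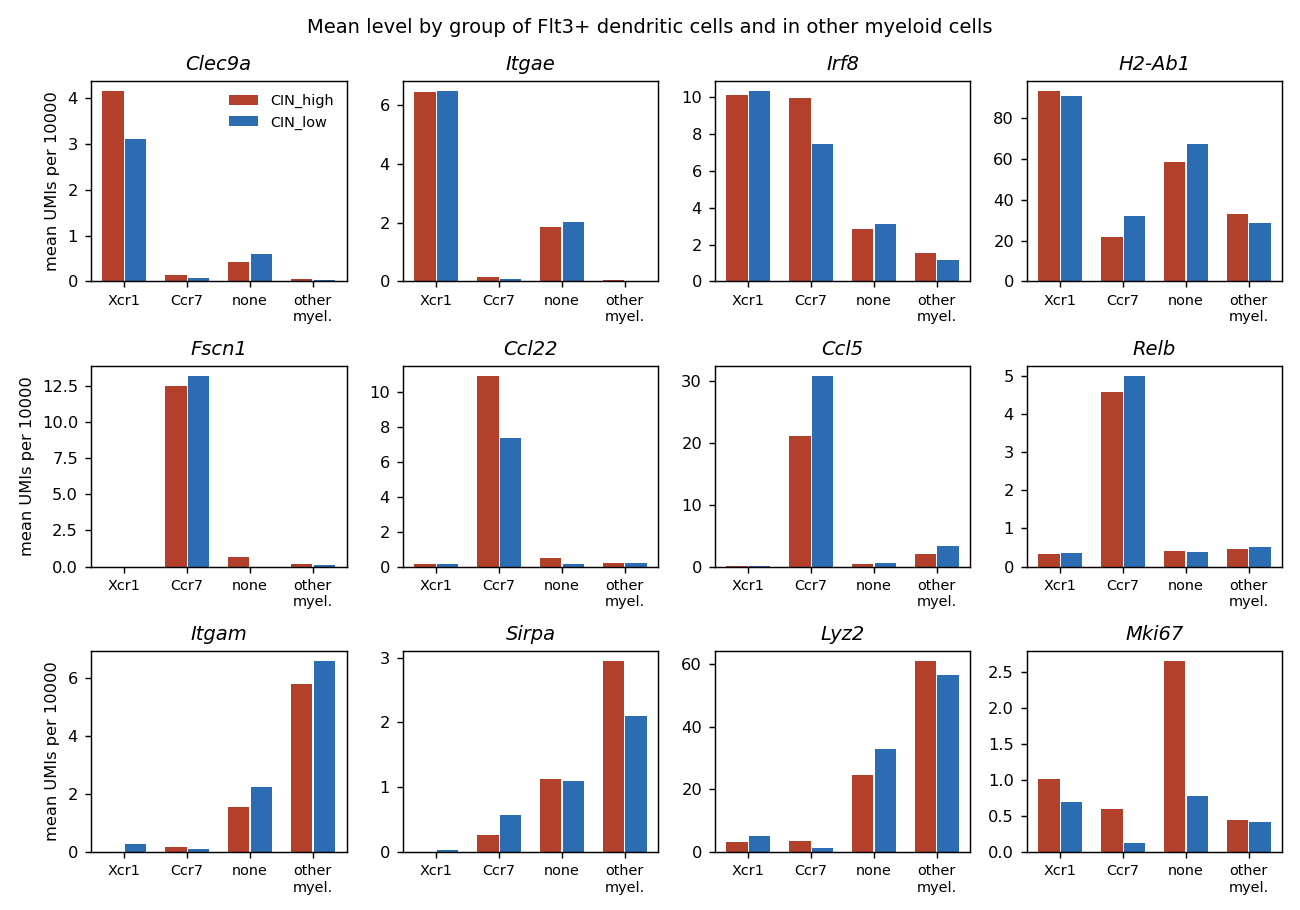
Mean level in UMIs per 10000 of 12 genes in the Xcr1 group, the Ccr7 group, members with neither marker and other myeloid cells, with CIN_high bars left of CIN_low bars; there are no error bars because each class is 1 library. Clec9a reached 4.16 and 3.11 in the Xcr1 group, Fscn1 12.5 and 13.2 in the Ccr7 group, and Lyz2 61.1 and 56.6 in other myeloid cells.

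In the Ccr7 group, 25 of 26 mature dendritic cell genes tested were higher, none lower, beside 627 of 2957 genes (21.2%) higher and 602 (20.4%) lower over all genes tested. The list's median log2 ratios were 4.67 (CIN_high) and 4.24 (CIN_low). Fscn1 was at 12.5 (CIN_high) and 13.2 (CIN_low) in the Ccr7 group and had 0 UMIs in the Xcr1 group of both libraries. Il4i1, a secreted amino acid oxidase that restrains T cells, was at 4.88 (CIN_high) and 4.21 (CIN_low) against 0 in both. Ccl22, which draws CCR4-bearing regulatory T cells, was at 11 (CIN_high) and 7.36 (CIN_low) in the Ccr7 group, against 0.135 and 0.145 in the Xcr1 group. In the Xcr1 group these 3 genes were at or near 0. Ccl17, the other CCR4 ligand, was shared, at 6.74 (CIN_high) and 4.12 (CIN_low) in the Ccr7 group and at 2.99 and 3.16 in the Xcr1 group.

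Ccl5, a chemokine that attracts T cells and monocytes, was at 21.1 (CIN_high) and 30.9 (CIN_low) in the Ccr7 group, against 0.0244 and 0.171 in the Xcr1 group. Fabp5, a fatty acid carrier, was at 24.7 (CIN_high) and 37.1 (CIN_low), against 0.0921 and 0.0252. Cd63, Il7r, Cacnb3, Socs2, Fam49a, Flrt3, Rftn1, Insl6 and Cdc42ep3 were the other leading genes beside Ccr7. Il7r is also a lymphocyte gene: it was at 4.18 (CIN_high) and 5.80 (CIN_low) in the Ccr7 group, while the T cell genes Cd3e, Cd3g, Trbc1, Trbc2 and Nkg7 were at 0 in all 315 members. Some other genes of the T and NK list, Klrd1 among them, did have UMIs in members.

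Ligands seen by T cells were more often higher than lower in the Ccr7 group. Of 7 costimulatory genes tested, 5 were higher in the Ccr7 group and 1 lower, and of 7 inhibitory ones, 4 were higher and 2 lower. Over all genes tested 21.2% were higher and 20.4% lower, so the counts of lower ligands are near that share. Cd80, a ligand of CD28, was at 2.85 (CIN_high) and 1.72 (CIN_low) in the Ccr7 group, against 0.664 and 0.539 in the Xcr1 group. Cd274, which encodes PD-L1, was at 3.82 (CIN_high) and 4.28 (CIN_low), against 0.513 and 0.533. The group with the higher level of this activating ligand thus also had the higher level of this inhibitory one. Havcr2, which encodes TIM-3, was at 0.249 (CIN_high) and 0.465 (CIN_low) in the Ccr7 group, against 2.57 and 2.96 in the Xcr1 group.

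Genes of NF-kB, the factor family that drives dendritic cell maturation, were higher in the Ccr7 group in 13 of 17 cases and lower in none, with median log2 ratios of 2.19 (CIN_high) and 1.79 (CIN_low). Over all genes tested 21.2% were higher and 20.4% lower. Relb was at 4.58 (CIN_high) and 5.00 (CIN_low) in the Ccr7 group, against 0.333 and 0.348 in the Xcr1 group. Rel was at 15.0 (CIN_high) and 14.4 (CIN_low), against 4.03 and 5.00. Nfkb2 was at 2.76 (CIN_high) and 2.56 (CIN_low), against 0.583 and 0.439. All 3 subunits were higher in the Ccr7 group of both libraries. Nfkbia, which encodes the inhibitor that holds NF-kB in the cytoplasm and is itself an NF-kB target, was at 6.63 (CIN_high) and 9.03 (CIN_low), against 1.21 and 2.06.

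Because these genes moved together, the 250 bases before 1 start of each gene, the first that the RefSeq promoter table (GRCm38.p6) lists, were searched on both strands for the letters of the kB motif, GGGNN followed directly by TTNCC. They were found in 6 of the 16 NF-kB genes with an entry, of 20 listed (37.5%): Rel, Nfkb2, Nfkbia, Tnfaip3, Tnip1 and Tnip3. The share was 4.00% of all 27025 promoters and 4.82% of the 8461 promoters of genes measured in members. They were found in 3 of 12 cDC2 promoters (25.0%), 2 of 13 cDC1 promoters and 0 of 21 mature dendritic cell promoters. The NF-kB list was put together from targets and regulators of NF-kB, so its high share could be foreseen from that choice and is not read as a result. A match describes letters in this window. By GENCODE the windows of Nfkb2 and Tnip3 lie wholly, and that of Tnfaip3 nearly wholly, downstream of the gene's outermost start, since other transcripts begin further upstream. Those of Rel (chr11:23770970-23771219) and Nfkbia (chr12:55492648-55492897), both on the minus strand, lie before the outermost start but for 1 base of Rel. These 2 are printed because their values are given above, with the kB letters in capitals. The run in Rel joins 2 matches shifted by 1 base.
Rel: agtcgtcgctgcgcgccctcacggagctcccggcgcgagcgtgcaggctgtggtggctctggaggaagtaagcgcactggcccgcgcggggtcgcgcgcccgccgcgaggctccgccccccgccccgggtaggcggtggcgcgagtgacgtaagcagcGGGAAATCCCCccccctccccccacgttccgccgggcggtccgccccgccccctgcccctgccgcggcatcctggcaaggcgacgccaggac
Nfkbia: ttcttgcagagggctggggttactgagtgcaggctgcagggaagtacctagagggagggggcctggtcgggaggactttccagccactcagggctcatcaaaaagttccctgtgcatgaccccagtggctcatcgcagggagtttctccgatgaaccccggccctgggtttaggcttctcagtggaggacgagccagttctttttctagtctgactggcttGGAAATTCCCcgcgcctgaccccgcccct

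The AP-1 letters TGANTCA, which read the same on both strands, were found in 2 of 12 promoters of genes common to dendritic cells, Zbtb46 and Itgax, in 3 of 16 of the NF-kB list and in 6.87% of all promoters. The Zbtb46 window stands before the start of a shorter transcript, 34788 bases inside the gene as GENCODE draws it, and is not shown. That of Itgax, which encodes the integrin chain CD11c by which dendritic cells are recognised, is shown with the letters in capitals (chr7:128129300-128129549, plus strand).
Itgax: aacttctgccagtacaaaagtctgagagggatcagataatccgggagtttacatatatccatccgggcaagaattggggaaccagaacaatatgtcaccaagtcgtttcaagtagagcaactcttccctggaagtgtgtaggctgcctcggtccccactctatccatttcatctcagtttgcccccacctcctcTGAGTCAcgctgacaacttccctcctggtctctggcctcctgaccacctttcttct

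Interferon gamma response genes were higher in the Ccr7 group in 7 of 12 cases and lower in 1, and type I interferon genes in 3 of 6 and none, beside 21.2% higher and 20.4% lower over all genes. Il12b, the p40 chain of IL-12 and IL-23, was at 4.47 (CIN_high) and 1.94 (CIN_low) in the Ccr7 group, against 0.355 and 0.256 in the Xcr1 group. Cxcl9, which draws CXCR3-bearing T cells, was at 2.18 (CIN_high) and 6.15 (CIN_low), against 2.44 and 0.640. Cxcl9 was thus close between the groups in the CIN_high library and higher in the Ccr7 group in the CIN_low library. Il10 and Ido2 were at 0 in every member.

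Cells with neither marker were not an empty remainder. Their contrast with the marker groups was added after the data had been seen. Of 3017 genes, 370 (12.3%) were higher in them in both libraries and 327 (10.8%) lower. All 6 monocyte genes and all 4 macrophage genes tested were higher, as were 6 of 10 cDC2 genes, while 20 of 25 mature dendritic cell genes were lower. Itgam, the CD11b chain carried by cDC2 and monocytes, was at 1.56 (CIN_high) and 2.25 (CIN_low), against 0 and 0.271 in the Xcr1 group and 0.160 and 0.0949 in the Ccr7 group. Sirpa was at 1.12 (CIN_high) and 1.10 (CIN_low), against 0 and 0.0273 in the Xcr1 group and 0.264 and 0.569 in the Ccr7 group. Among members, both of these cDC2 genes were thus highest in cells with neither marker. Other genes of the cDC2 list did not all follow. Mgl2 was at 0 (CIN_high) and 0.624 (CIN_low), against 0.461 and 0.181 in the Xcr1 group and 0.180 and 0.261 in the Ccr7 group. Irf4 was at 0.213 (CIN_high) and 0.182 (CIN_low), against 0 and 0 in the Xcr1 group and 0.141 and 0.313 in the Ccr7 group. Clec10a was higher in cells with neither marker than in either group, at 0.645 (CIN_high) and 0.794 (CIN_low).

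The same cells carried genes of monocytes. Lyz2 was at 24.6 (CIN_high) and 33.0 (CIN_low) in cells with neither marker, against 61.1 and 56.6 in other myeloid cells. Csf1r, the M-CSF receptor of monocytes and macrophages, was at 0.779 (CIN_high) and 1.85 (CIN_low), against 4.67 and 4.15 in other myeloid cells. The monocyte list summed to 30.9 (CIN_high) and 37.7 (CIN_low) in cells with neither marker and to 38.8 and 37.8 in other myeloid cells. Monocyte and macrophage sums together exceeded the cDC1 and mature sums together in 20 of 43 CIN_high and 26 of 49 CIN_low cells with neither marker. The cDC2 list was not counted here, and the lists hold different genes, so this describes the sums only. At the other end, 8 CIN_high and 12 CIN_low cells had a cDC1 sum at least that of the lowest cell of their Xcr1 group, which was 34.5 (CIN_high) and 23.8 (CIN_low). Chil3, Hp, Thbs1, Cd14, Clec4e, Ccr1, Cebpb, Ms4a6c, Ms4a6d, Plaur, Fcgr3 and Emilin2 were the other leading genes.

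The 13 cells with both Xcr1 and Ccr7 did not form 1 kind. In the CIN_high library 5 of 7 had a mature sum above the cDC1 sum, and in the CIN_low library 2 of 6. Their mature sums ran from 7.41 to 326 (CIN_high) and from 5.50 to 238 (CIN_low), which spans the levels of both groups. Their median depth was 11962 UMIs (CIN_high) and 16268 UMIs (CIN_low), above the Ccr7 group's 8387.5 and 8062, and the part of depth or of 2 cells in 1 droplet was not tested beyond Scrublet, which marked 1 member in all.

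Between the classes, 3164 genes passed the minimum levels in members. At 1.5-fold, 199 (6.29%) were higher in CIN_high members and 262 (8.28%) lower. This split depended on the scaling: 98 were higher and 239 lower by summed UMIs, and 343 higher and 234 lower with mitochondrial, ribosomal protein and neutrophil genes out of the total. In other myeloid cells 55 of 2843 genes (1.93%) were higher and 150 (5.28%) lower, and of those seen in 2% or more of the cells 7.94% were higher and 3.25% lower. The 315 members are far fewer than the 7963 other myeloid cells, and a ratio over fewer cells has a larger counting error.

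The cDC1 genes were higher in CIN_high members as a set. Of 18, all seen in 2% or more of the cells of either library, 11 were higher and none lower, beside 18.3% of 10720 genes higher and 16.0% lower. The median log2 ratio was 0.64, beside 0.015 over all genes. Xcr1 was at 1.75 in CIN_high and 0.799 in CIN_low members (2.20-fold; counting interval 1.71 to 2.60). Such intervals belong to the ratio of summed UMIs, which weights deep cells, and can leave out the ratio of means. Cadm1, an adhesion molecule of cDC1, was at 0.769 and 0.306 (2.51-fold, 1.85 to 3.63), and Clec9a at 1.54 and 0.819 (1.89-fold, 1.27 to 1.95). Irf8 was at 7.59 in CIN_high and 6.68 in CIN_low members (1.14-fold), Batf3 at 1.45 and 1.13 (1.28-fold) and Zbtb46 at 0.709 and 0.480 (1.48-fold), all short of 1.5-fold. Zbtb46 crossed 1.5-fold under 6 of the alternatives, at up to 1.75-fold, but was at 1.13-fold with at least 2 Flt3 UMIs and at 1.18-fold by summed UMIs. A Zbtb46 UMI was seen in 34.8% of CIN_high and 29.4% of CIN_low members. With cells thinned to equal depth the order reversed, at 9.76% of CIN_high and 15.1% of CIN_low members. The direction for Zbtb46 thus depended on the measure. Irf4, a factor of cDC2 and mature cells, was too low for the test, at 0.113 and 0.211, and Tert had no UMI in members of either library.

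Mature dendritic cell genes ran the other way: 3 of 28 were higher and 9 lower in CIN_high members, with a median log2 ratio of -0.44. Over all genes 18.3% were higher and 16.0% lower. Ccr7 was at 9.72 in CIN_high and 16.4 in CIN_low members (0.593-fold, 0.566 to 0.657). Ccl5 was at 7.33 and 16.2 (0.453-fold, 0.426 to 0.50), although 1 CIN_low cell held 414 of the 2366 Ccl5 UMIs there. Fscn1 was at 4.87 and 6.80 (0.716-fold), and Cd274 at 2.0 and 2.88 (0.695-fold). Ccl22 at 4.81 and 3.96 (1.22-fold), Ccl17 at 3.98 and 3.64 (1.09-fold) and Cd40, the receptor for T cell help, at 0.714 and 0.623 (1.15-fold) did not share this direction. Both directions are those of the marker groups' shares. With the groups given the same weights in both libraries, the cDC1 median was 0.076 and the mature median -0.0092.

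With the groups so weighted, the log2 ratio was 0.31 for Xcr1, 0.25 for Clec9a, -0.21 for Ccr7, 0.07 for Fscn1 and -0.18 for Cd274, all within 1.5-fold, while Zbtb46 stood at 1.75-fold, Ccl22 at 1.68-fold and Cd40 at 1.56-fold, past it. The weighting makes the share of cells with an Xcr1 or a Ccr7 UMI equal in both libraries, so the move of these 2 genes toward 1 is in part by construction. In this weighting Cadm1 just reached 1.5-fold and Ccl5 was at 0.687-fold, within it. That of Cxcl9 was -0.95 and that of Il12b 1.22. Cxcl9 was at 2.23 in CIN_high and 4.6 in CIN_low members (0.485-fold, 0.434 to 0.587). The order was the other way in the Xcr1 group, at 2.44 (CIN_high) and 0.640 (CIN_low), on 84 and 20 UMIs. Cxcl9 was at 2.18 and 6.15 in the Ccr7 group and at 1.79 and 4.77 in cells with neither marker. Il12b was at 2.05 and 1.15 (1.77-fold, 1.81 to 2.77), but 18.1% of CIN_high members and 17.5% of CIN_low members held it, and single cells held 67 of 241 CIN_high and 38 of 143 CIN_low UMIs. Its log2 ratio was -0.27 with all 3 C1q genes at 0 and -0.39 without cells that held Mki67 or Top2a.

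Chemokines were lower in CIN_high members in 9 of 14 cases and higher in 1, beside 16.0% lower and 18.3% higher over all genes. Their median log2 ratio was -1.09 (-0.36 in other myeloid cells). In the Ccr7 group 4 of 7 chemokines tested were higher than in the other groups and 1 lower, beside 21.2% and 20.4% of all genes. That group was 33.3% of CIN_high and 51.4% of CIN_low members, and the part of these shares was not tested. Of the 9 chemokines lower in CIN_high members, Cxcl2 and Cxcl3 were seen at or below the share in T and NK cells, and the part of free RNA was not tested. Cxcl10, a CXCR3 ligand like Cxcl9, was at 1.34 in CIN_high and 3.70 in CIN_low members (0.362-fold), and Cxcl16, the ligand of CXCR6, at 3.73 and 6.47 (0.576-fold). Gpr183, the oxysterol receptor that positions dendritic cells in tissue, was at 0.311 and 1.82 (0.171-fold, 0.148 to 0.293). Its transcripts were seen in 19.6% of CIN_high members and 45.2% of CIN_low members. In the Ccr7 group Gpr183 was at 0.277 (CIN_high) and 2.70 (CIN_low), and in other myeloid cells its ratio was 0.457. Neither marker group had 50 cells in both libraries, the number set for a comparison within a group, so values by group stand side by side only.

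Interferon genes were lower more often than higher in CIN_high members. Of 19 type I interferon response genes 8 were lower and 1 higher (median log2 ratio -0.49, other myeloid 0.12), and of 16 interferon gamma response genes 5 were lower and none higher (-0.36, other myeloid -0.080), beside 18.3% higher and 16.0% lower over all genes. Of those that passed the minimum levels, 1 of 7 type I genes and 5 of 13 interferon gamma genes were lower, beside 8.28% of all. This is also the direction of the group shares. Both lists were more often higher than lower in the Ccr7 group, which was 33.3% of CIN_high and 51.4% of CIN_low members. The part of these shares was not tested. Isg15, a ubiquitin-like modifier, was at 1.49 in CIN_high and 2.22 in CIN_low members (0.669-fold), and Gbp2, a GTPase that attacks microbial vacuoles, at 1.73 and 3.15 (0.551-fold). MHC class II genes were at near equal levels, 1 of 13 higher and none lower, with H2-Aa at 57.3 and 58.5 (0.980-fold). Of 18 MHC class I and cross-presentation genes 1 was higher and 3 lower, a share of lower genes near the 16.0% over all genes.

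Genes of the dividing cell were higher in CIN_high members in 17 of 20 G2 and M phase genes, with none lower and a median log2 ratio of 1.29 (0.062 in other myeloid cells). Of 20 S phase genes 9 were higher and none lower (0.52, other myeloid 0.19). Over all genes 18.3% were higher and 16.0% lower. Few of these genes passed the minimum levels: 2 G2 and M genes, both higher, and 2 S phase genes, neither of them higher or lower. Of all genes that passed, 6.29% were higher. Mki67, present in cycling cells, was at 1.37 in CIN_high and 0.473 in CIN_low members (2.90-fold, 1.63 to 2.53), and in other myeloid cells its ratio was 1.05. Counted as cells, 16 of 138 CIN_high members (11.6%, 6.77% to 18.1%) and 9 of 177 CIN_low members (5.08%, 2.35% to 9.43%) held 10 or more UMIs of the G2 and M list. The intervals overlap, and such cells are few. Most were outside the Ccr7 group: 9 of 43 CIN_high and 3 of 49 CIN_low cells with neither marker reached 10 UMIs, 5 of 42 and 2 of 30 of the Xcr1 group, and 1 of 46 and 1 of 91 of the Ccr7 group. Hist1h2ae (2.69-fold) and Hist1h2ap (2.50-fold), histone genes, were also among the 12 highest ratios.

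Other leading genes in the higher direction were Apol7c, Cd81, Slc16a6, Tfrc, Nom1, Clk4 and Cadm1, with ratios from 2.51 to 8.22. Apol7c, of the apolipoprotein L family, was at 0.927 in CIN_high and 0.113 in CIN_low members (8.22-fold, 3.06 to 7.98), on 88 UMIs in 16 cells against 24 UMIs in 8 cells. Without cells that held Mki67 or Top2a the ratio was 1.88, and by summed UMIs 4.86. In other myeloid cells it was 6.09. Tfrc, the transferrin receptor, was at 0.643 and 0.189 (3.39-fold, 2.17 to 4.86; other myeloid 1.13).

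Of the 12 leading genes in the lower direction 5 were on the neutrophil list: S100a8, S100a9, Retnlg, G0s2 and Lcn2. S100a8, a neutrophil calprotectin chain, was at 0.457 in CIN_high and 6.08 in CIN_low members (0.0752-fold), with 173 of 549 CIN_low UMIs in 1 cell. Of the 8 neutrophil genes measured 7 were lower and none higher, beside 16.0% lower and 18.3% higher over all genes. Their median log2 ratio was -2.97 (-0.84 in other myeloid cells). The list summed to 3.53 in CIN_high and 20.1 in CIN_low members, and to 470 and 860 in other myeloid cells. S100a8 was seen in 31.2% of CIN_high members and 85.9% of CIN_low members, and at like shares in T and NK cells, 32.9% (CIN_high) and 83.3% (CIN_low). S100a9, Retnlg, G0s2, Cxcl2 and Cxcl3 were likewise seen in members at or about the share in T and NK cells, which were shallower (medians 3442 and 3666 UMIs). Levels were less alike: S100a8 was at 6.49 in CIN_high and 15.9 in CIN_low T and NK cells. The part of free RNA in the UMIs of these 6 genes was not tested, and their ratios are not read as a difference in expression. G0s2 rested on 3 CIN_high and 68 CIN_low UMIs, 42 of them in 1 cell, and Cxcl3 on 2 and 59 (0.0273-fold, 0.00531 to 0.170). Without the members that held 10 or more UMIs of S100a8 and S100a9, the ratio was 0.162 for S100a8, 0.238 for S100a9 and 0.244 for Retnlg, each over 1.5 times nearer to 1 than in all members. Only CIN_low cells were left out by this, which kept 138 CIN_high and 167 CIN_low members. The move of S100a8 and S100a9 is thus by construction. Wfdc21, Lcn2, Gpr183, Ccl3, Upp1 and Hspa1a, a heat shock gene, were the others.

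Markers of other lineages stood beside these ratios, and 25 CIN_high and 35 CIN_low members held a UMI of a gene that defines another lineage. All 6 fibroblast genes measured were higher in CIN_high members, beside 18.3% of all genes. The fibroblast list summed to 1.16 in CIN_high and 0.0526 in CIN_low members, and to 1.77 and 0.116 in other myeloid cells. The T and NK list summed to 2.74 and 6.21 in members, of which Il7r and Klrd1 made up nearly all, with 9 of 13 genes at 0 in CIN_high and 8 in CIN_low members. The epithelial list summed to 1.18 and 1.65, and the B and plasma cell list to 0.711 and 1.29. Mitochondrial transcripts took a median 4.56% of CIN_high and 3.33% of CIN_low members' UMIs, and ribosomal protein genes 17.4% and 14.3%. Without the members that held a UMI of another lineage, 202 genes were higher and 318 lower, Hspa1a stood at 0.0836-fold against 0.182 in all members and Lcn2 at 0.0801-fold against 0.211, and Il12b was at 1.26-fold, within 1.5-fold.

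**Figure D4:**
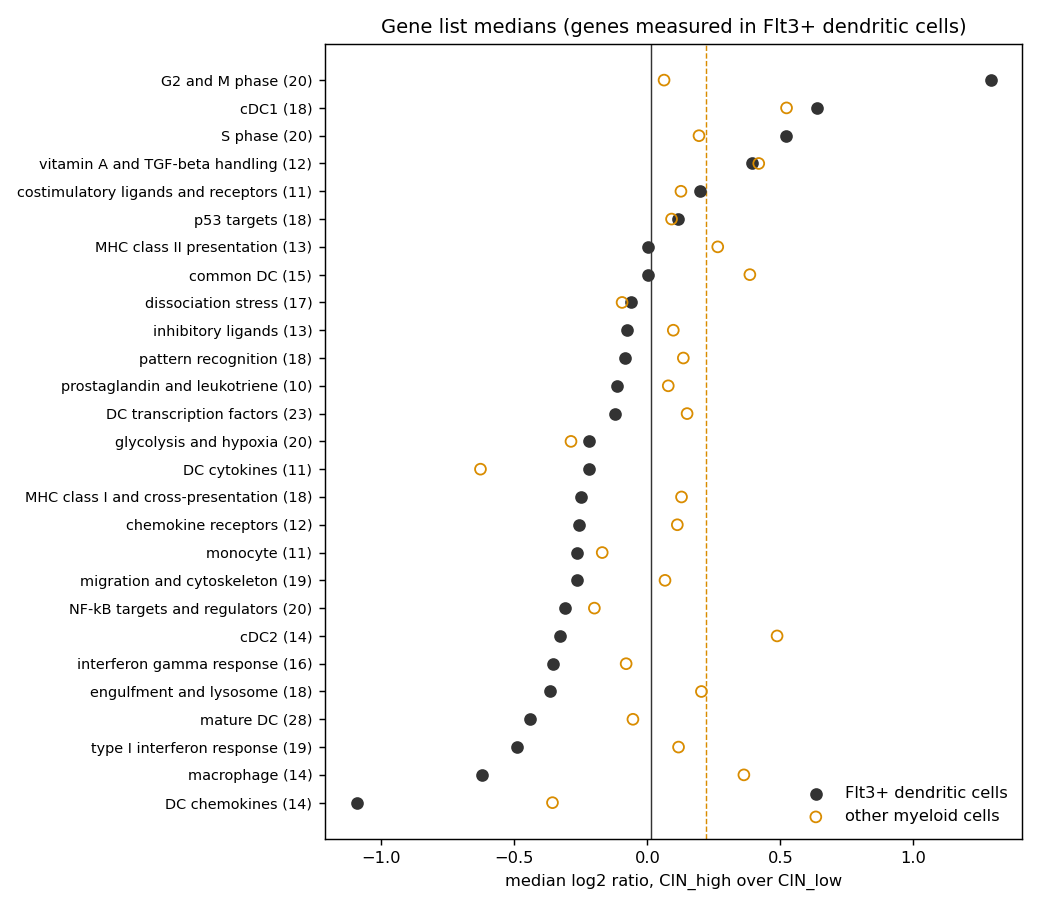
Median log2 ratio of CIN_high over CIN_low of 27 gene lists with at least 10 genes measured, in Flt3-positive dendritic cells (filled) and other myeloid cells (open); vertical lines mark the medians over all genes, 0.015 (solid, members) and 0.22 (dashed, other myeloid). The G2 and M list stands at 1.29 in members, the cDC1 list at 0.64 and the chemokine list at -1.09.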

How the data were processed

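Single-cell RNA was measured in 2 droplet libraries of distal colon adenoma, 51868113 UMIs in 6189 CIN_high cells and 74733715 UMIs in 7908 CIN_low cells. Per the submitters' processing notes, the tools were Cell Ranger 2.1.1 and Seurat and the build mm10. The sources used here do not give how cells and genes were filtered or how doublets and free RNA were treated. The deposited values are natural log (ln) values of 1 plus UMIs per 10000: their exponential minus 1 summed to 10000 in each cell. Whole UMIs were recovered for 100% of the non-zero values (tolerance 0.01). Cell type and class are the authors' deposited labels.

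The design expected counts, and foresaw for log values the mean over cells of linear values. A gene's level is that mean and its ratio the ratio of means. Counting intervals are exact, at 95%: conditional binomial for summed UMIs, Clopper-Pearson for cells. Summed UMIs weight deep cells, so a ratio of means can lie outside its interval. Genes tested had 30 UMIs or more over both sides and, on the side where they were higher, a level of 0.5 and a UMI in 10% of the cells; list genes needed a UMI in 2% of cells of 1 library. A gene was called at 1.5-fold; a side with 0 UMIs was set to 3, and a share or level of 0 allows up to 3 counts of its total.

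Named genes were the 12 largest ratios each way between classes, the 15 largest (smaller of both libraries) for a group or all members, and 18 genes always given, with predicted, receptor segment, hemoglobin, mitochondrial, ribosomal and sex-linked genes left out; other genes are list members given as examples. A few genes that this rule names are not reported here. Members, groups and lists were chosen with earlier results of these data known. The listed Mcpt8, Clec7a, Sting1, Mb21d1, Mx1 and Mx2 had no row. No mast and basophil gene reached the list minimum. Scrublet (Scanpy 1.11.5, expected rate 6%) marked 142 CIN_high and 249 CIN_low cells, which stayed in. Promoters came from RefSeq GRCm38.p6. Python 3.11.15, numpy 2.4.6, pandas 2.3.3, SciPy 1.17.1 and matplotlib 3.10.9 were used. The functions were tested on simulated data. Alternatives varied the cells, depth, denominator, scaling, group weights and minimums.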

Additional observations from a re-analysis of the deposited data

Results flagged for a closer look

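Of 34 gene lists, 10 had median log2 ratios of CIN_high over CIN_low that lay on opposite sides of the median of all genes in dendritic cells and in other myeloid cells, 5 of them at least 0.1 away from it in both. Among these 5, the macrophage, G2 and M phase and B and plasma cell lists also had a median past 1.5-fold in the dendritic cells. The differences themselves were not tested, and each class is 1 library. The macrophage list stood at -0.62 in the dendritic cells and 0.36 in other myeloid cells. It counts 7 of 14 measured genes as lower and 1 as higher in the dendritic cells, beside 16.0% and 18.3% of all genes. This list holds C1qa, C1qb and C1qc, and the rule had removed cells with 2 or more C1q genes from the dendritic cells only. Of its 4 genes that passed the minimum levels there, 1 was lower and none higher, with a median of 0.096, so the sign depended on the minimum. The G2 and M phase list stood at 1.29 in the dendritic cells and 0.062 in other myeloid cells. The B and plasma cell list stood at 0.93 in the dendritic cells and -1.01 in other myeloid cells, on 6 measured genes. The 1 gene of this list that passed the minimum levels in the dendritic cells was at -2.02. Cd79a was at 0.121 in CIN_high and 0.00858 in CIN_low members, on 18 UMIs and 1 UMI, of which 11 were in 1 CIN_high cell.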

How the results depend on the processing

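No paired analysis was possible because each class is 1 library and the groups share no replicate. The share of dendritic cells among CIN_high myeloid cells was 2.53% with at least 2 Flt3 UMIs, 2.80% after thinning and 7.15% without Csf3r-bearing cells; that among CIN_low myeloid cells was 1.70%, 2.12% and 5.71%, and 2.62% with all C1q genes at 0. The Xcr1 group was 44.6% of CIN_high members with at least 2 Flt3 UMIs and 9.38% of CIN_low members after thinning. The single Cd209a cell was lost (0%) under these 2 choices and with all C1q genes at 0. Genes higher in CIN_high members numbered 303 with at least 2 Flt3 UMIs, 98 by summed UMIs and 343 without mitochondrial, ribosomal protein and neutrophil genes, where 59.4% of calls were higher against 43.2%; by summed UMIs 29.1% were. The B and plasma cell list median turned to -3.62 with at least 2 Flt3 UMIs, -5.02 without cells with a UMI of another lineage and -4.82 without cells with a Mki67 or Top2a UMI. Leaving out the cycling cells, chosen after seeing the data, gave -0.73 for the G2 and M list by construction, 6 lists with a median above 0 in place of 10, and -0.39 (log2) for Il12b, which was -0.27 with all C1q genes at 0. The cause of the other changes was not tested. Under the alternatives 64 values of shares and counts stayed within their interval or 1.5 times and 16 did not; of the list medians 302 stayed and 14 did not, and of the named genes' ratios 263 and 91. Leaving out members with 10 or more UMIs of S100a8 and S100a9, also chosen after seeing the data, gave 200 genes higher and 262 lower, and took the ratio of S100a8 to 0.162, S100a9 to 0.238, Retnlg to 0.244, Cxcl2 to 0.152, Lcn2 to 0.494, G0s2 to 0.0995 and Cxcl3 to 0.0562, each a move of over 1.5 times toward 1. All cells left out there were CIN_low, so the moves of S100a8 and S100a9 are by construction. With at least 2 Flt3 UMIs S100a8 was at 0.225, S100a9 at 0.249, Cxcl2 at 0.193 and Wfdc21 at 0.199, Mki67 at 1.88 and Cd81 at 6.82. Without cycling cells Apol7c was at 1.88, Ccl3 at 0.276 and Cd40 at 0.664. With 1 library per class, depth and counting error are the only errors measured: the 0 Tert UMIs seen in members allow a level of up to 0.0235 (CIN_high) and 0.0177 (CIN_low) UMIs per 10000.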

Other observations

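Retinoic acid made by intestinal dendritic cells instructs T cells to home to the gut, and Aldh1a2 encodes the enzyme. Aldh1a2 was at 0.487 in CIN_high and 0.0426 in CIN_low members, on 66 and 8 UMIs, and in the Ccr7 group at 1.08 and 0.0764. Of the 12 genes measured for vitamin A and TGF-beta handling 5 were higher in CIN_high members and 1 lower, beside 18.3% and 16.0% of all genes. Their median log2 ratio was 0.39 (0.42 in other myeloid cells).

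Of 18 pattern recognition genes measured 5 were higher and 5 lower in CIN_high members, beside 18.3% and 16.0% over all genes. Tlr3 was at 0.866 in CIN_high and 0.548 in CIN_low members (1.58-fold), and Tlr2, a sensor of bacterial lipoproteins, at 0.323 and 0.653 (0.495-fold). Among transcription factors 2 of 23 were higher and 3 lower, below those shares. Rbpj, the partner of Notch, was at 2.02 and 1.29 (1.57-fold), and Zeb2, which restrains the cDC1 fate, at 0.648 and 1.16 (0.561-fold). Il1b, the inflammatory cytokine, was at 12.3 in CIN_high and 23.3 in CIN_low members (0.530-fold; 0.698-fold in other myeloid cells).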
